A study of Mus musculus with 6 samples.

Results

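The genes described here encode 10 receptors and counter-receptors with which hematopoietic cells home to and hold on to bone marrow: the chemokine receptor gene Cxcr4, the integrin genes Itga4, Itgb1, Itgal and Itga6, the adhesion molecule genes Vcam1 and Icam1, the selectin ligand gene Selplg, the hyaluronan receptor gene Cd44 and the urokinase receptor gene Plaur. They were chosen by name, with earlier results of these data known, so the list is not independent of them. All 10 of the genes were measured among 22180 genes. Each gene was represented by a probe set annotated to it alone, the one with the highest mean over the 6 arrays where there were several. The arrays held RNA of LSK cells, bone marrow cells sorted as lineage-negative and positive for Sca1 and cKit, the fraction in which stem cells and multipotent progenitors are found. In 3 arrays the cells were labelled TIFAB+/+ (wild type) and in the other 3 TIFAB-/- (knockout), and the arrays are called by these labels throughout. Both groups came from mice carrying transplanted marrow, and the labels describe syngeneic Boy/J recipients irradiated with 7 and then 4.75 Gy, with 3 hours between the doses. The labels give 3 months for the mice, 3 in each group, which is read here as their age. They do not settle whether it was the age at transplantation or at sorting, or a time after transplantation. The labels do not say whether host cells were kept out of the sort, or which part of Tifab is deleted. Tifab encodes a relative of TIFA, an adaptor protein of TRAF6 signalling, and the series asks how its loss alters the expression profile of engrafted LSK cells.

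Homing works in steps. Selectins on marrow vessels slow passing cells through carbohydrate ligands on PSGL-1, the product of Selplg, and on CD44. The chemokine CXCL12, made by marrow stroma, then signals through CXCR4 and switches integrins to a tightly binding state. VLA-4, a pair of Itga4 and Itgb1 products, binds VCAM1 and fibronectin, and LFA-1, which contains the Itgal product, binds ICAM1. The laminin receptor chain encoded by Itga6 takes part in lodging. The urokinase receptor gathers proteolysis at the cell surface and associates with integrins.

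Markers of the sorted LSK fraction were read on the same arrays. Over 10 measured LSK genes the mean log2 value lay between 7.93 and 8.01 in the wild-type arrays and between 7.94 and 8.04 in the knockout arrays. Kit, whose product was used in the sort, averaged 9.56 and Cd34 10.49 over all arrays, while Ly6a, the gene of Sca1, was not analysed here. The groups were separate for 2 of these 10 genes, as for 16.1% of all genes. Both encode transcription factors of stem cells. Meis1 was higher in the knockout arrays, with 0.39 ± 0.13 (SE, limma unadjusted p = 0.0137), and Hlf lower, with -0.33 ± 0.13 (SE, limma unadjusted p = 0.0333). Neither passed an adjusted p of 0.05. The Tifab probe set read 4.99 to 5.53 in the wild-type and 5.12 to 5.26 in the knockout arrays, a difference of -0.10 ± 0.18 (SE, limma adjusted p = 0.885). It gives no check of the labels, so every direction below rests on them. Wild-type replicate 1 stood farthest from the rest, with a mean correlation of 0.976 with the other arrays across genes, against 0.979 to 0.982 for the others.

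Among the 10 receptor genes the lowest p values were those of Plaur, Vcam1 and Icam1, all with lower means in the knockout arrays. Plaur averaged 0.486 of its wild-type level, Vcam1 0.597 and Icam1 0.723. None of the 10 genes passed an adjusted p of 0.05, with adjusted p values from 0.344 to 0.978, so these are differences in measured values and not calls. In limma, 3 of 10 genes had an unadjusted p under 0.05 in the lower direction, beside 5.51% of all genes, and 0 of 10 in the higher direction, beside 4.74% of all genes. In either direction the share over all genes was 10.3%. No gene of the 22180 passed an adjusted p of 0.05, which is 0% of them. The median difference was -0.06 over the 10 genes and 0.00 over all genes, on the log2 scale and as knockout minus wild type. Since whole sorted populations were measured, fewer cells expressing a gene and less of its RNA per cell cannot be told apart.

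**Figure D1:**
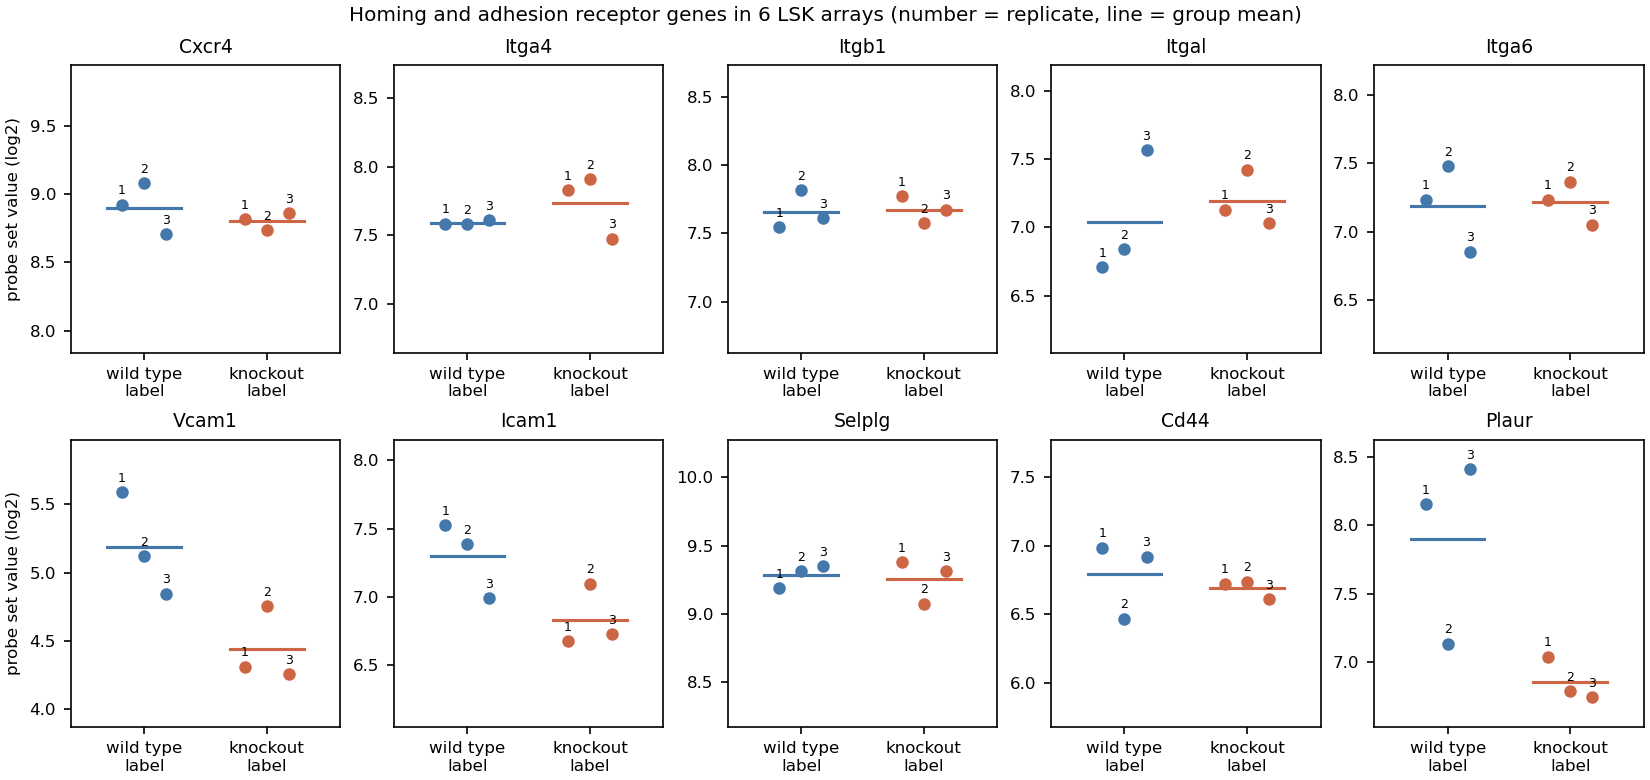
Log2 probe set value of each of the 10 genes (vertical axis, all panels spanning the same range) in the 3 wild-type and 3 knockout arrays. Points are single arrays with their replicate number and lines are group means. The groups do not overlap for Vcam1 and Plaur, and the other 8 genes overlap.

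Separate groups were seen for 2 of 10 genes, both lower in the knockout arrays, beside 8.37% of all genes in that direction. In the higher direction it was 0 of 10, beside 7.75% of all genes, and 16.1% of all genes had separate groups in either direction. The separation was narrow for both. The lowest wild-type Vcam1 value exceeded the highest knockout value by 0.09, and for Plaur the corresponding gap was 0.10. The wild-type arrays varied more: 8 of 10 genes had a wider range among them than among the knockout arrays, as had 60.8% of all genes. Fold changes also moved with brightness, but in the 3 signal deciles that hold these genes the median differences over all genes were small, 0.06 in the sixth, 0.01 in the ninth and 0.05 in the tenth.

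Promoter sequence was matched in RefSeq for 6 of the 10 genes (GRCm38.p6): Cd44, Cxcr4, Icam1, Itga4, Itgb1 and Plaur. The 250 bases before the annotated start are printed for Icam1 and Plaur, the genes among these 6 with an unadjusted p under 0.05, and for Cxcr4, a gene with a p above it. The windows are chr9:21015690-21015939 on the plus strand, chr7:24462233-24462482 on the plus strand and chr1:128592300-128592549 on the minus strand. Capitals mark matches, on either strand, to 5 motifs: the general NF-kB consensus, the NF-kB form GGAANTTCC, the AP-1 site TGACTCA, the GC box GGGCGG and the TATA motif TATAAA.
Icam1: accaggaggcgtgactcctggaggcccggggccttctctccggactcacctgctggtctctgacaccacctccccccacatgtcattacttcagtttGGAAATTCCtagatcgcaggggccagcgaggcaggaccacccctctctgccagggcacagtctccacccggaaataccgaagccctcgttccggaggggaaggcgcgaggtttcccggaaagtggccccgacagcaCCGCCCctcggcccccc
Plaur: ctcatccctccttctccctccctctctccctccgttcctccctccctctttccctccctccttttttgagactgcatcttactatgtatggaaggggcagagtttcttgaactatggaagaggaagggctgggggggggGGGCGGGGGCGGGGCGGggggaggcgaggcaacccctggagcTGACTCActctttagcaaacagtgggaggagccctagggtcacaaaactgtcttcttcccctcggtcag
Cxcr4: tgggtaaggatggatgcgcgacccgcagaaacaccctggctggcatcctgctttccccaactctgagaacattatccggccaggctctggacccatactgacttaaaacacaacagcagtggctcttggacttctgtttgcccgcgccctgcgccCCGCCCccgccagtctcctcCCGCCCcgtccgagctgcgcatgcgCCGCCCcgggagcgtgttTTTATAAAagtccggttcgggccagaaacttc
The Icam1 window held GGAAATTCC, 153 to 145 bases before the start, which is a match to GGAANTTCC found in 0.813% of 32841 promoter windows of the same length. It also held 1 GC box. The Plaur window held the AP-1 letters TGACTCA 69 to 63 bases before the start, found in 4.46% of windows, and 3 GC boxes that overlap or touch one another. Cxcr4 held 3 GC boxes and the TATA letters, 30 to 25 bases before the start and again on the other strand with overlap. GC boxes occurred in 32.7% of windows and TATA letters in 12.4%. The general NF-kB consensus, in 7.25% of windows, had no match in the 6 windows, and the Cd44 window matched none of the 5 motifs. These matches describe letters and say nothing of binding in these cells.

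Cxcr4, the receptor for CXCL12 that retains stem cells in marrow, had overlapping levels in the groups. It measured 8.92, 9.08 and 8.70 in the wild-type arrays and 8.81, 8.74 and 8.86 in the knockout arrays. The knockout values lay inside the wild-type range. The difference was -0.10 ± 0.13 (SE, limma adjusted p = 0.823), with a 95% interval of 0.769 to 1.14-fold. Leaving out wild-type replicate 2 gave -0.0095, and leaving out wild-type replicate 3 gave -0.20. Ackr3, the gene of a second, scavenging CXCL12 receptor, was named for this role after its values were seen and had 0.09 ± 0.17 (SE). Cxcl12 itself, a stromal product, averaged 4.54 and 4.41 in the wild-type and knockout arrays.

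The VLA-4 chains did not differ beyond their spread. Itga4 read 7.58, 7.58 and 7.61 in the wild-type arrays, the narrowest range of the 10 genes, and 7.83, 7.91 and 7.47 in the knockout arrays. Knockout replicates 1 and 2 lay above all wild-type values and replicate 3 below them. The difference was 0.15 ± 0.15 (SE, limma adjusted p = 0.763), or 0.878 to 1.40-fold as a 95% interval. It was 0.061 without knockout replicate 2 and 0.28 without knockout replicate 3. A second probe set, shared with Cerkl and therefore not used, differed by -0.00. Itgb1, the chain common to VLA-4 and the laminin receptor, read 7.54, 7.81 and 7.61 against 7.77, 7.57 and 7.67. Its groups lay in the same range, with a difference of 0.02 ± 0.14 (SE, 0.819 to 1.25-fold), of which the sign turned to -0.02 under quantile normalization and under cyclic loess.

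Itga6 and Itgal varied more among arrays of one label than between labels. Itga6, the alpha chain of the laminin receptor, measured 7.23, 7.48 and 6.85 in the wild-type arrays and 7.24, 7.37 and 7.05 in the knockout arrays. Replicate 2 was the highest and replicate 3 the lowest in both groups, although the sample labels state no pairing by replicate number. The difference was 0.03 ± 0.18 (SE, 0.766 to 1.36-fold) and turned to -0.0021 under cyclic loess.

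Itgal, the alpha chain of LFA-1, read 6.71, 6.84 and 7.56 in the wild-type arrays and 7.13, 7.42 and 7.03 in the knockout arrays. Wild-type replicate 3 was the highest of all arrays, and wild-type replicates 1 and 2 the lowest. The difference was 0.16 ± 0.23 (SE, limma adjusted p = 0.853), 0.781 to 1.59-fold. Without wild-type replicate 3 it became 0.42 (unadjusted p = 0.0441, adjusted p = 0.391 in limma), and without wild-type replicate 1 it was -0.0075. Itgb2, which encodes the beta chain of LFA-1 and was named for this role after its values were seen, was also highest in wild-type replicate 3, at 7.57 against 6.96 and 7.10, with 7.22, 7.13 and 7.29 in the knockout arrays. Its difference of 0.00 took either sign under the alternatives. The mean of 13 lymphocyte markers was highest in knockout replicate 2, at 5.43, and in wild-type replicate 3, at 5.38, the arrays where Itgal was also highest, and lay between 5.00 and 5.21 in the others. Single markers differed in this. The plasma cell marker Sdc1 was highest in the same arrays, at 7.84 and 7.09. Nkg7, the brightest lymphocyte marker, was highest in wild-type replicate 1, at 10.06, with 9.75 and 9.64 in knockout replicate 2 and wild-type replicate 3. The part of lymphocyte transcripts in the Itgal values was not tested.

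Vcam1 and Icam1, the immunoglobulin-family counter-receptors of these integrins and textbook NF-kB target genes, both had lower means in the knockout arrays. Vcam1 read 5.59, 5.12 and 4.85 in the wild-type arrays and 4.31, 4.75 and 4.26 in the knockout arrays. Every knockout value lay below every wild-type one, and knockout replicate 2 came close to wild-type replicate 3. The difference was -0.74 ± 0.23 (SE, limma unadjusted p = 0.00881, adjusted p = 0.356), with a 95% interval of 0.420 to 0.849-fold. Leaving out wild-type replicate 1 gave -0.54, and leaving out wild-type replicate 3 gave -0.91. The Vcam1 probe set lay at percentile 56.1 of all genes by mean signal. Its knockout values, 4.26 to 4.75, were not far above the array medians over all probe sets, 4.05 to 4.10.

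Icam1, at percentile 86.3 by mean signal, read 7.53, 7.38 and 6.99 in the wild-type arrays and 6.68, 7.10 and 6.73 in the knockout arrays. The groups overlapped, since knockout replicate 2 lay above wild-type replicate 3. The order of the arrays within each label was close to that of Vcam1: wild-type replicate 1 was highest and replicate 3 lowest for both genes, and knockout replicate 2 was the highest of its group for both. The difference was -0.47 ± 0.19 (SE, limma unadjusted p = 0.0329, adjusted p = 0.455), 0.541 to 0.968-fold. The unadjusted p exceeded 0.05 on leaving out 1 of 4 arrays: it was 0.112 and 0.0846 when wild-type replicate 1 or 2 was absent, and 0.109 and 0.0922 when knockout replicate 1 or 3 was. The difference stayed negative in each of these, at -0.35 to -0.43.

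Each counter-receptor was also set against its integrin within the same array, which removes shifts common to the array. These 2 pairs were chosen with results of the data known. The log2 value of Vcam1 minus that of Itga4 was -1.99, -2.46 and -2.76 in the wild-type arrays and -3.52, -3.16 and -3.22 in the knockout arrays. The groups did not overlap, and the change of -0.89 had p = 0.1 in a two-sided exact permutation test, the smallest p that 3 arrays against 3 allow, or 0.2 after adjustment over the 2 pairs. For Icam1 minus Itgal the values were 0.82, 0.54 and -0.57 against -0.45, -0.32 and -0.30. Wild-type replicate 3 lay below all knockout arrays, and the change of -0.62 (exact permutation p = 0.4, adjusted 0.4) did not exceed the spread, and became -1.04 when wild-type replicate 3 was left out and -0.35 when wild-type replicate 1 was.

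**Figure D2:**
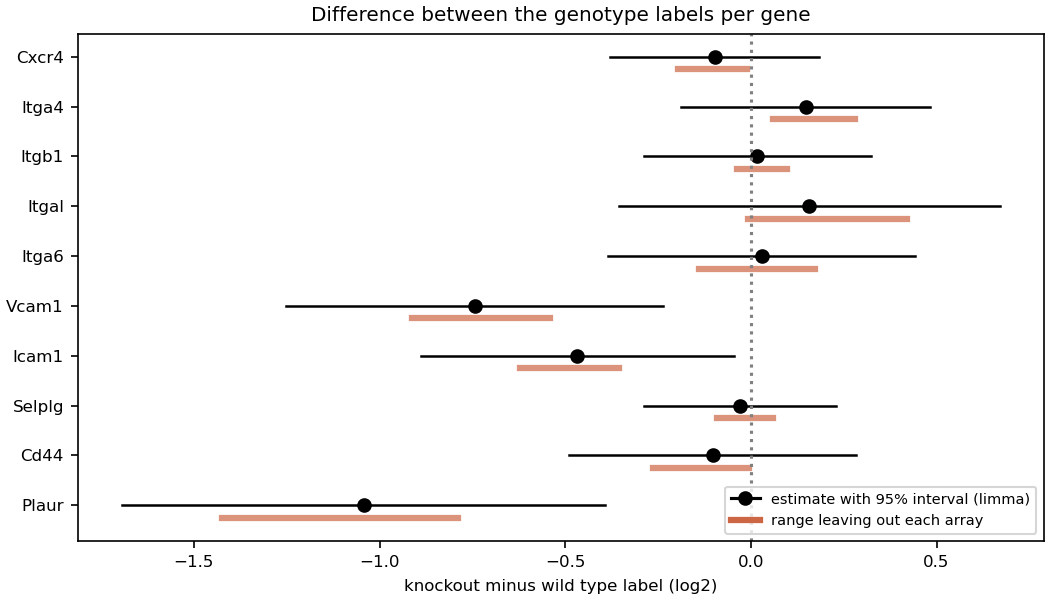
Difference between knockout- and wild-type arrays per gene on the log2 scale (horizontal axis), with the 95% interval from limma in black and the range of the estimate over the 6 fits that leave out 1 array in orange. Plaur, Vcam1 and Icam1 stay below 0 throughout, at -0.79, -0.54 and -0.35 or lower, and Itgb1, Itgal, Itga6 and Selplg cross 0 when an array is left out.

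Selplg and Cd44, which carry the selectin ligands, did not differ beyond their spread. Selplg read 9.19, 9.31 and 9.35 in the wild-type arrays and 9.38, 9.07 and 9.31 in the knockout arrays. Knockout replicate 2 was the lowest and knockout replicate 1 the highest, so the wild-type values lay between them. The difference was -0.03 ± 0.12 (SE, 0.819 to 1.17-fold, limma adjusted p = 0.952), and the dimmer second Selplg probe set gave -0.11. Cd44, the receptor for hyaluronan in the marrow matrix, read 6.99, 6.47 and 6.92 against 6.72, 6.74 and 6.61. Wild-type replicate 2 was the lowest array and the other wild-type arrays the highest. Its difference was -0.10 ± 0.17 (SE, 0.713 to 1.22-fold) and leaving out wild-type replicate 1, 2 or 3 gave -0.0047, -0.26 and -0.038.

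Plaur, the gene of the urokinase receptor uPAR, had the largest difference of the 10 genes. It read 8.15, 7.13 and 8.41 in the wild-type arrays and 7.04, 6.79 and 6.74 in the knockout arrays. Wild-type replicates 1 and 3 were far above the knockout arrays, and wild-type replicate 2 was just above them. The difference was -1.04 ± 0.29 (SE, limma unadjusted p = 0.00536, adjusted p = 0.344), with a 95% interval of 0.309 to 0.762-fold and lower values in 3 of 3 knockout arrays. It was -1.43 without wild-type replicate 2 (adjusted p = 0.128 in limma) and -0.79 without wild-type replicate 3 (adjusted p = 0.328 in limma), and the adjusted p ran from 0.128 to 0.645 over all alternatives. The range of Plaur was 1.27 among wild-type and 0.29 among knockout arrays, 4.35 times as wide. Plau, the gene of its ligand urokinase, named for this role after its values were seen, had -0.35 ± 0.17 (SE, limma adjusted p = 0.505).

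Genes with the pattern most like that of Plaur were sought among 11089 others above the median signal, by the root mean square distance between centred log2 values over the 6 arrays. The nearest were the small RNA gene Scarna17 at 0.149, Agtrap, which encodes a protein associated with the angiotensin receptor, at 0.178, the nuclear lamin gene Lmna at 0.236, Fosl2, an AP-1 family transcription factor gene, at 0.258, and Bex4 at 0.287. Their own differences lay between -0.84 and -0.51. Plaur was used because it had the smallest p of the receptor genes. Since these genes were picked for closeness to its values, their lower means followed from the search and add no support.

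Mature neutrophils and monocytes also carry uPAR, and markers of such cells were read on the same arrays. The mean over 16 of 16 neutrophil markers lay between 7.23 and 7.66 in the wild-type and between 7.08 and 7.38 in the knockout arrays, a difference of -0.23. It was highest in wild-type replicate 1 and lowest in knockout replicate 2. Of these markers 12 were lower and 4 higher, with 3 lower and 0 higher at an unadjusted p under 0.05, beside 5.51% and 4.74% of all genes. Among them the interleukin-1 decoy receptor gene Il1r2 had -1.33 ± 0.37 (SE), or -0.82 without wild-type replicate 1, and the collagenase gene Mmp8 -0.85 ± 0.24 (SE), while S100a8, the brightest, had -0.06 ± 0.07 (SE). Groups were separate for 3 lower markers, Il1r2 and Mmp8 among them, and for 1 higher marker, beside 8.37% and 7.75% of all genes. The higher one was Csf3r, the receptor gene for the growth factor G-CSF, with 0.26 ± 0.13 (SE). The part of neutrophil RNA in the Plaur difference was not tested.

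Macrophages and stroma are known sources of Vcam1. The mean over 18 monocyte and macrophage markers was 4.48 to 4.60 in the wild-type and 4.52 to 4.59 in the knockout arrays, so the groups overlapped. The complement genes C1qa and C1qb of macrophages went opposite ways, at 0.52 ± 0.17 and -0.51 ± 0.16 (SE). Over 16 markers of stroma and endothelium the mean was 3.83 to 3.91 and 3.87 to 3.94. For 10 measured platelet and megakaryocyte markers it was 5.35 to 5.37 and 5.23 to 5.37. Of these 5 were higher and 5 lower with a median of 0.01. Before adjustment, limma gave p under 0.05 to 2 lower markers and 0 higher ones. The shares by this measure over all genes were 5.51% lower and 4.74% higher. Groups were separate for the platelet glycoprotein genes Gp5, lower at -0.52 ± 0.15 (SE), and Gp6, higher at 0.16 ± 0.14 (SE). Gp6 was outside the rule for named genes and seen afterwards, and its signal lay under the 40th percentile. Over all genes 16.1% had separate groups. No marker list was tested as a set.

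**Figure D3:**
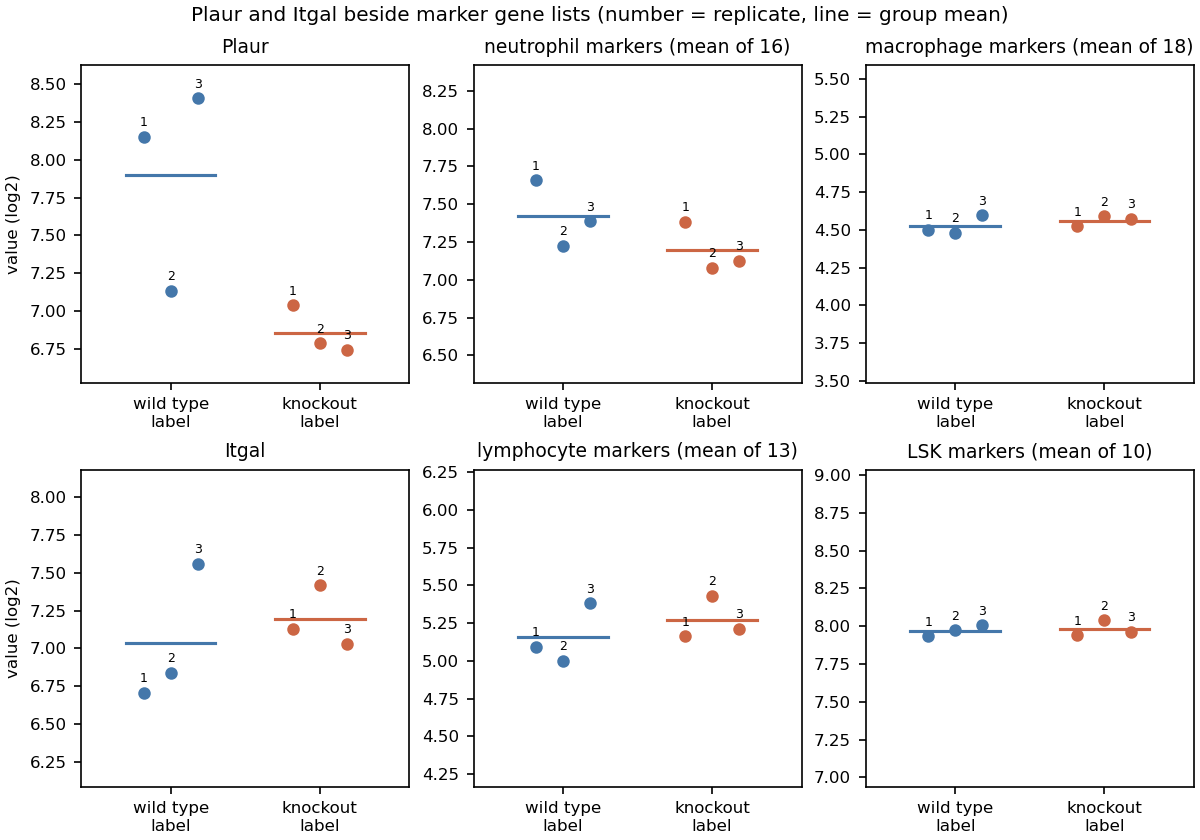
Log2 values of Plaur and Itgal and the mean log2 value of 4 marker gene lists in each array (vertical axis, all panels spanning the same range). Points are arrays with their replicate number and lines are group means. The neutrophil mean is 0.23 lower in the knockout arrays with overlapping groups, and the lymphocyte mean is highest in knockout replicate 2 and wild-type replicate 3, as is Itgal.

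Further genes of homing and adhesion were set out in 6 lists of named roles, all chosen with results of these data known and none tested as a set. No gene in any list passed an adjusted p of 0.05. Among 21 measured integrin subunits other than those above, 15 were higher and 6 lower with a median of 0.05. At an unadjusted p under 0.05 in limma, 1 was higher and 0 lower, beside 4.74% and 5.51% of all genes. The higher one was Itgae, the alpha chain that pairs with beta 7 on mucosal T cells. It read 3.27 against 3.75 (0.48 ± 0.18, SE), a dim probe set with 0.30 without wild-type replicate 1. Itga7 and Itgb5, next by p, had 0.36 ± 0.17 and -0.35 ± 0.22 (SE), and leaving out an array moved Itgb5 to -0.17 (wild-type replicate 3) or -0.53 (knockout replicate 2). The remaining 20 subunits in the list, like Itga4, Itgb1, Itgal and Itga6, had an unadjusted p above 0.05.

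Of 33 measured chemokine and lipid homing receptors, an unadjusted p under 0.05 was seen for 5 in the higher direction, beside 4.74% of all genes, and for 2 in the lower, beside 5.51%, and the list's median was 0.04. Among them were 3 of the 5 receptors for sphingosine 1-phosphate, a lipid that guides cells out of tissue into blood: S1pr5 had 0.48 ± 0.16 (SE), S1pr3 0.76 ± 0.32 (SE) and S1pr4 0.48 ± 0.20 (SE). The other two, named after their values were seen, had -0.18 ± 0.19 (SE, S1pr1) and 0.04 ± 0.24 (SE, S1pr2), and both took either sign when an array was left out. S1pr4 read 5.84, 5.28 and 5.16 in the wild-type and 6.03, 5.75 and 5.93 in the knockout arrays, where wild-type replicate 1 overlapped the knockout range. S1pr3 and S1pr5 lay at percentiles 44.6 and 54.45 by mean signal. The S1pr3 groups also overlapped, and its difference came down to 0.47 without knockout replicate 3. The chemokine receptor gene Cxcr3 of activated lymphocytes read 4.41, 4.18 and 4.67 against 4.92, 5.16 and 5.11. Its groups did not overlap, with a difference of 0.64 ± 0.18 (SE, limma adjusted p = 0.344). The skin-homing receptor gene Ccr10, outside the rule for named genes and seen afterwards, had 0.70 ± 0.31 (SE).

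The lower receptors were Ccr7, which guides lymphoid cells to lymph nodes, at 5.43 against 4.81 (-0.62 ± 0.19, SE), and the eosinophil receptor gene Ccr3. Ccr3 read 2.77, 2.89 and 3.64 in the wild-type and 2.30, 1.99 and 2.11 in the knockout arrays. Its groups did not overlap, with -0.97 ± 0.22 (SE, limma adjusted p = 0.314), but its signal lay at percentile 13.2, in the second signal decile, where the median over all genes was -0.06. The count of 5 higher receptors fell to 2 without wild-type replicate 2 or without knockout replicate 3, and to 3 without wild-type replicate 3, without knockout replicate 1 or under cyclic loess.

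Of 35 other adhesion molecules, selectins and niche ligands, 21 were higher and 14 lower (median 0.04). At an unadjusted p under 0.05, 1 was higher and 1 lower, beside 4.74% and 5.51% of all genes. The 2 genes had dim probe sets. They were Ncam1, a neural and NK cell adhesion molecule gene, at 0.51 ± 0.16 (SE), and the hyaluronan synthase gene Has2 at -0.36 ± 0.15 (SE). Podxl, the gene of a sialomucin related to CD34, had 0.32 ± 0.18 (SE), or 0.20 without knockout replicate 3, and Cd34 itself 0.13 ± 0.09 (SE), or 0.071 without knockout replicate 2.

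Of 40 genes of integrin activation and adhesion signalling, 20 were higher and 20 lower with a median of 0.00. In limma, 2 of the 40 had p under 0.05 before adjustment, both lower, where the share over all genes was 5.51%. Separate groups were seen for 3 genes of the list in the higher direction and 4 in the lower, where the shares were 7.75% and 8.37%. Rhoh, a hematopoietic GTPase gene, read 6.86, 7.01 and 6.82 in the wild-type and 6.56, 6.26 and 6.28 in the knockout arrays. Its groups did not overlap, with a difference of -0.53 ± 0.15 (SE, limma adjusted p = 0.354). Grk6, a kinase gene for chemokine receptor desensitisation, had -0.63 ± 0.23 (SE), or -0.43 without wild-type replicate 1. Rgs18, a regulator of G-protein signalling, had 0.29 ± 0.13 (SE).

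The urokinase system and pericellular proteases were 13 higher and 12 lower of 25 measured, with a median of 0.04. With an unadjusted p under 0.05 there were 2 higher genes and 1 lower gene, beside 4.74% and 5.51% of all genes. Ctsg, the cathepsin G gene of early granulocytes, read 9.931, 9.997 and 9.973 in the wild-type and 10.59, 10.27 and 10.28 in the knockout arrays. These groups did not overlap, with 0.41 ± 0.10 (SE, limma adjusted p = 0.334). Mrc2, a collagen receptor gene whose product binds uPAR, had 0.48 ± 0.20 (SE), or 0.32 without wild-type replicate 3. Its probe set was dim, at percentile 37.2 by mean signal, and its groups overlapped. Mmp8, which is also a neutrophil marker above, had -0.56 without knockout replicate 3. Genes of the same list thus lay on both sides of 0 while Plaur was lower.

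Among 24 measured genes of selectin ligand glycosylation, which build the sugars carried by PSGL-1 and CD44, 14 were higher and 10 lower with a median of 0.01. At an unadjusted p under 0.05, 1 was higher and 0 lower, beside 4.74% and 5.51% of all genes. The higher one was the sulfotransferase gene Chst2 (0.50 ± 0.19, SE, limma adjusted p = 0.433). The fucosyltransferase gene Fut7, which completes the selectin-binding sugar, had 0.46 ± 0.22 (SE), or 0.26 without wild-type replicate 1. The branching enzyme gene Gcnt4, with a dim probe set at percentile 37.1, had 0.33 ± 0.17 (SE), or 0.21 without knockout replicate 3.

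**Figure D4:**
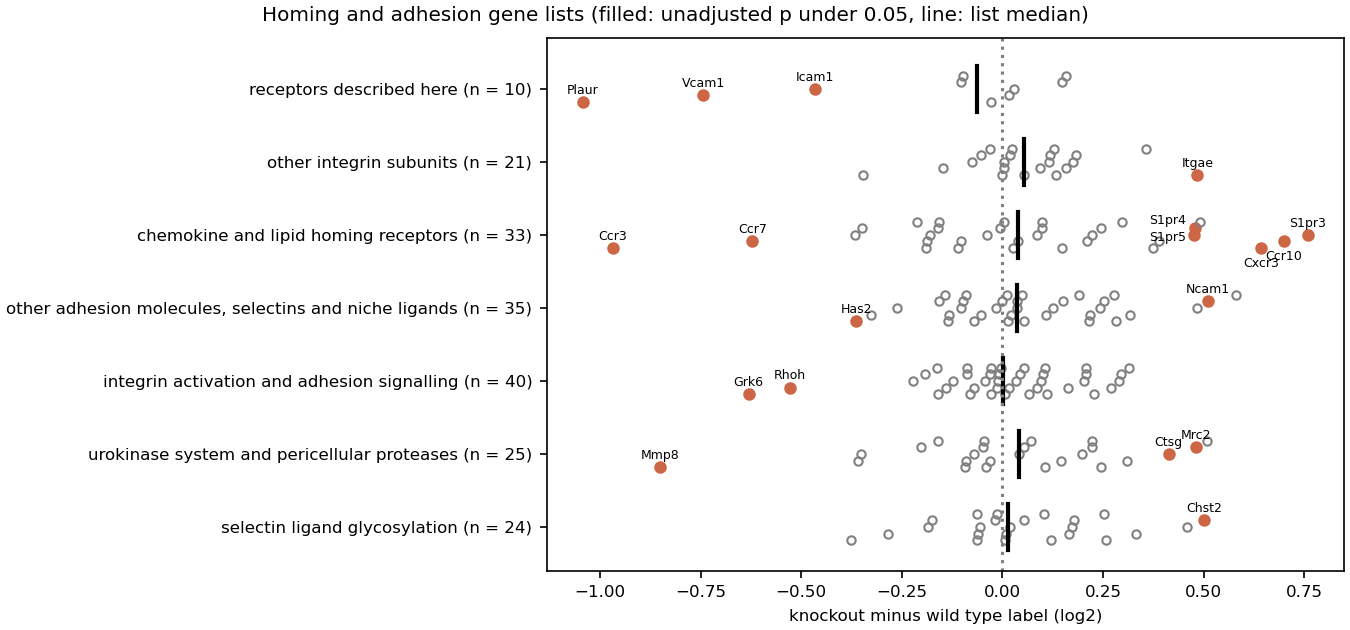
Difference between knockout- and wild-type arrays on the log2 scale (horizontal axis) for each gene of the 10 receptors and of the 6 lists, 1 point a gene, spread vertically for legibility. Filled, named points have an unadjusted p under 0.05 in limma and black lines are list medians, which lie between -0.06 and 0.05.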

How the data were processed

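RNA of LSK cells was hybridised to Affymetrix MoGene 2.0 ST arrays, 1 array per sample, after amplification with a NuGEN kit, per the labels' protocols. The authors deposited log2 values for 41345 probe sets, made with Affymetrix Expression Console per the submitters' processing notes. For its version, background correction, normalization and filters, nothing is given in the sources used here. Array medians lay between 4.05 and 4.10, so no further scaling was applied. If whole arrays were equalised, a shift in RNA content per cell would not be seen.

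Of the probe sets, 23521 carried 1 gene symbol in the platform annotation, 1814 several and 16010 none. The first were reduced to 22180 genes. All genes were fitted with limma 3.58.1 in R 4.3.3 (lmFit, eBayes with an intensity trend, two-sided, a single genotype term), and p values were adjusted by Benjamini-Hochberg over all genes, with a threshold of 0.05. The fit was tested on simulated data. Precision is limited by 3 arrays per group, which the labels describe as 3 mice per group.

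Members, lists and alternatives were chosen with earlier results of these data known. The text names all members, Tifab, up to 6 genes per list with an unadjusted p under 0.05 (otherwise the 3 with the lowest p) and a few markers per marker list; others are marked. The 15 alternatives were eBayes without trend, robust eBayes, quantile normalization, median centring, cyclic loess, a filter at the 40th percentile of signal, averaging the probe sets of each gene, blocking on replicate number, array weights and each of 6 arrays left out.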

Additional observations from a re-analysis of the deposited data

How the results depend on the processing

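Under the 15 alternatives, 139 of 150 values of the 10 receptor genes kept their sign, and none passed an adjusted p of 0.05. Plaur, Vcam1 and Icam1 stayed negative in all 15, and 3 genes were lower at an unadjusted p under 0.05 in every setting except those leaving out an array, where the count was 2 to 3. Signs turned for values near 0. Itga6 was -0.0021 with cyclic loess and -0.14 to 0.17 over the fits leaving out an array. Itgb1 was -0.018 with quantile normalization, -0.022 with cyclic loess and -0.039 to 0.096 with an array left out. With an array left out, Itgal ran from -0.0075 to 0.42 and Selplg from -0.091 to 0.061. Leaving out an array also gave 0 to 1 genes past an adjusted p of 0.05 among all genes, and 0 to 1 receptor genes higher at an unadjusted p under 0.05, Itgal without wild-type replicate 3.

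Of 578 values of 39 other named genes, 565 kept their sign. Itgb2 turned to -0.0094 (quantile normalization), -0.0044 (median centring), -0.026 (cyclic loess), -0.013 (array weights) and was as low as -0.12 with an array left out, where its highest value was 0.18. With an array left out, Ackr3 ran from -0.020 to 0.19, S1pr1 from -0.30 to 0.0070, S1pr2 from -0.12 to 0.28 and Tifab from -0.25 to 0.017. Of 180 list counts, 41 moved over 1.5 times. Quantile normalization moved the share of higher genes among those at an unadjusted p under 0.05 from 46.3% to 58.4%, and the 40th percentile filter to 62.6%.

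Deviations of same-numbered arrays from their group means correlated at 0.020, -0.031 and -0.088, so no pairing by replicate number was seen across genes. The sample labels state none. With the replicate block Plaur had -1.04 (limma adjusted p = 0.388), 3 receptor genes were lower at an unadjusted p under 0.05, and 2119 genes in all had such a p against 2274 without it.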
